A study of Saccharomyces cerevisiae with 6 samples.

Results

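Yeast mitochondrial genes carry introns that contain reading frames of their own, and 10 of these reading frames are described here, of the 15753 annotated features in the table. They were chosen by identity, as the reading frames of group I and group II introns on the mitochondrial chromosome, and not by any measured value. 6 of them lie in introns of COX1, the gene of subunit 1 of cytochrome c oxidase, namely AI1 (Q0050), AI2 (Q0055), AI3 (Q0060), AI4 (Q0065), AI5_ALPHA (Q0070) and AI5_BETA (Q0075). BI2 (Q0110), BI3 (Q0115) and BI4 (Q0120) lie in introns of COB, the cytochrome b gene, and SCEI (Q0160) lies in the intron of the 21S rRNA gene, which encodes the large ribosomal RNA of mitochondria.

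Group I and group II introns are ribozymes that fold into defined structures and are removed from the precursor RNA by transesterification, in yeast with the help of proteins. Some of these proteins are maturases, which are translated from the intron itself, usually in frame with the exons upstream, and which stabilise the fold of that intron. Others are homing endonucleases, which cut copies of the gene that lack the intron and so spread it, or reverse transcriptases that copy a group II intron into DNA. The proteins of AI1 and AI2 are maturases and reverse transcriptases, those of BI2, BI3 and BI4 are maturases, and those of AI3, AI4, AI5_ALPHA and SCEI are endonucleases (I-SceIII, I-SceII, I-SceIV and I-SceI). The RefSeq annotation gives AI5_BETA only as a hypothetical protein, and gives it no function.

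The RNA was separated by RNA co-immunoprecipitation and sequencing (RIP-seq) with the antibody J2, which recognises double-stranded RNA (dsRNA) regardless of its sequence. All libraries came from wild-type Saccharomyces cerevisiae of the S288C background grown at 25 °C without further treatment, and DNase-treated total RNA, extracted with Trizol, was the starting material in each. The 3 J2 eluate libraries hold RNA recovered from the beads of the first round with J2, and the 3 J2 unbound libraries hold RNA left in solution after a second round with fresh antibody and beads. An eluate prepared without antibody was not analysed here, so values describe the eluate relative to RNA that J2 had left behind.

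The introns are introduced by the bases at their 5′ ends, where the group II introns have a start in common. All sequences are from the RefSeq R64 assembly, plus strand, 5′ to 3′. The first 5 bases of the intron are in capitals, between the last 10 bases of the exon and the next 10 bases of the intron.
AI1: ttatttaatgGTGCGcctctcagtg
AI2: atgattttctGTGCGccgtttcgct
AI3: ttttggtaacCAAAAaagatatgaa
AI4: attctttggtCAAACagtggccctt
AI5_ALPHA: ctcatgattaATAAAtccctttagc
AI5_BETA: attccacgatATTAAtttaataagt
BI2: acattgaggtAATATaaatatcgcc
BI3: gaggtgggttTAATAtagaggatcc
BI4: tactttaggtCAAAAtatggcctta
SCEI: gctagggataATTTAcccccttgtc

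The introns of AI1 (chrM:13987-16434) and AI2 (chrM:16471-18953) are the group II introns among these. Both begin with GTGCG, as 2 of 2, against 0 of the 8 group I introns. GTGCG stands at 0.0117% of all 5-base positions of the plus strand of the mitochondrial sequence. The group I introns share no such start. Their last exon base was T in 5 of 8 and their last intron base was G in 5 of 8, on a strand that is 40.7% T and 9.11% G. In AI5_ALPHA and SCEI both bases were A, with T before it in the exon and G before it in the intron. A junction placed a base upstream would leave their joined exons the same, with T and G at those ends. These counts therefore depend on where the junction was annotated. The windows of AI4 (intron chrM:20985-21994) and BI4 (intron chrM:41091-42507), whose splicing both depends on the BI4 maturase, have the same base at 15 of 25 positions.

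The single intron of the 21S rRNA gene (chrM:60725-61867) interrupts the sequence that its own product, the I-SceI endonuclease, recognises. With the intron removed, the last 12 bases of exon 1 (lower case) and the first 12 bases of exon 2 (capitals) join to that site.
21S joined exons: acgctagggataACAGGGTAATAT

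COX1 has 7 introns in the annotation, of which 6 hold a reading frame described here. COB has 5, of which 3 do, and the 21S rRNA gene has 1. The introns with these reading frames are 1010 to 2483 bases long. The group II introns are the richest in G and C, with 25.2% for AI1 and 26.7% for AI2, and the group I introns run from 15.7% for BI2 to 23.4% for AI3, where the whole mitochondrial sequence has 17.1% and the nuclear chromosomes have 38.3%.

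The reading frames are not separate transcripts, and their counts are not independent of their hosts. Per the coordinates of the table, each feature consists of its coding exons, with the stretch upstream of the start and downstream of the stop added to its ends, and 43 of 43 reference exons of these genes were found as such segments. A read was counted in every feature of its strand that it overlapped. In 2312 of 2312 pairs of nested features the inner feature had reads and the outer feature had at least as many in every library. AI1 exceeded COX1 in eluate 1, which the span of COX1 with its introns could not give, so introns of COX1 were not counted towards COX1.

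**Figure D1:**
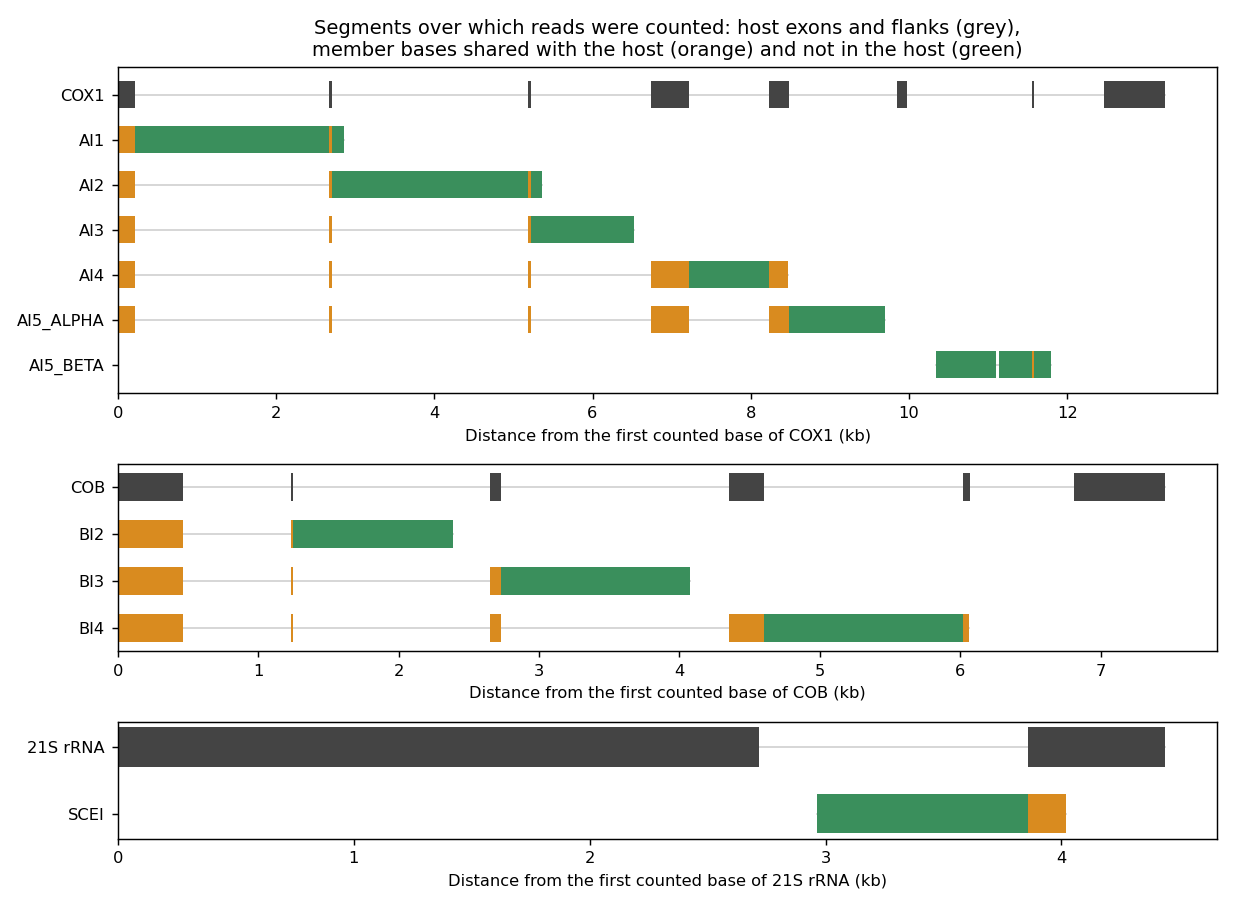
Segments over which reads were counted, by distance in kb from the first counted base of the host (COX1, COB and 21S rRNA from top to bottom). Grey bars are host segments, orange bars are bases of a reading frame that are also host bases, and green bars are bases of the reading frame outside the host; thin lines join the segments of a feature. AI5_BETA shares the least with its host (25 bases), and about as much of AI4 is shared as is not.

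The shared part differs widely. AI5_BETA shares 25 of its 1415 bases with COX1 (1.77%), AI1 shares 255 of 2855 (8.93%), AI2 shares 293 of 2915 (10.1%) and AI3 shares 293 of 1598 (18.3%). AI5_ALPHA and AI4, whose reading frames continue from the first 5 and 4 exons of COX1, share 45.6% and 50.02%. The map of the segments shows that AI5_BETA is the only COX1 reading frame that does not start in exon 1. In COB the shared part is 29.5% for BI2, 29.2% for BI3 and 37.5% for BI4. SCEI shares 162 of 1058 bases (15.3%) with exon 2 of the 21S rRNA, through the stretch downstream of its stop.

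All 10 reading frames were enriched in the J2 eluate (limma on log2 of the normalized count + 1, Benjamini-Hochberg adjusted over all 15753 features, call under 0.05), and 0 were reduced. Of all features, 38.7% were enriched and 34.4% reduced by the same rule, so a call of enrichment is common in these data. The log2 fold changes of eluate over unbound ran from 0.86 to 1.63 with a median of 1.49, beside a median of 0.28 over all features. In 8 of 10 every eluate library was above every unbound library, where 40.7% of all features have that order. Within same-numbered libraries the ratio was above 1 for 10 of 10 in each of the 3 pairs. The median log2 ratios were 1.88, 1.74 and 0.79 in pairs 1, 2 and 3. Over all features they were 0.21, 0.23 and 0.25, so a ratio above 1 was common among all features too.

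The number of calls rests on the libraries. Without unbound 3, 3 of 10 were called (AI5_BETA, BI4 and SCEI), beside 37.2% of all features, and without eluate 1 or without eluate 2, 6 were called, beside 35.3% and 33.9% of all features, with AI1, AI4, AI5_ALPHA and BI3 lost in both. Other tools called all 10 as well, the DESeq2 Wald test beside 36.3% of all features, the edgeR quasi-likelihood test beside 41.5% and limma with the replicate number as a block beside 40.8%. No log2 fold change was negative under any of the 15 alternative settings.

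**Figure D2:**
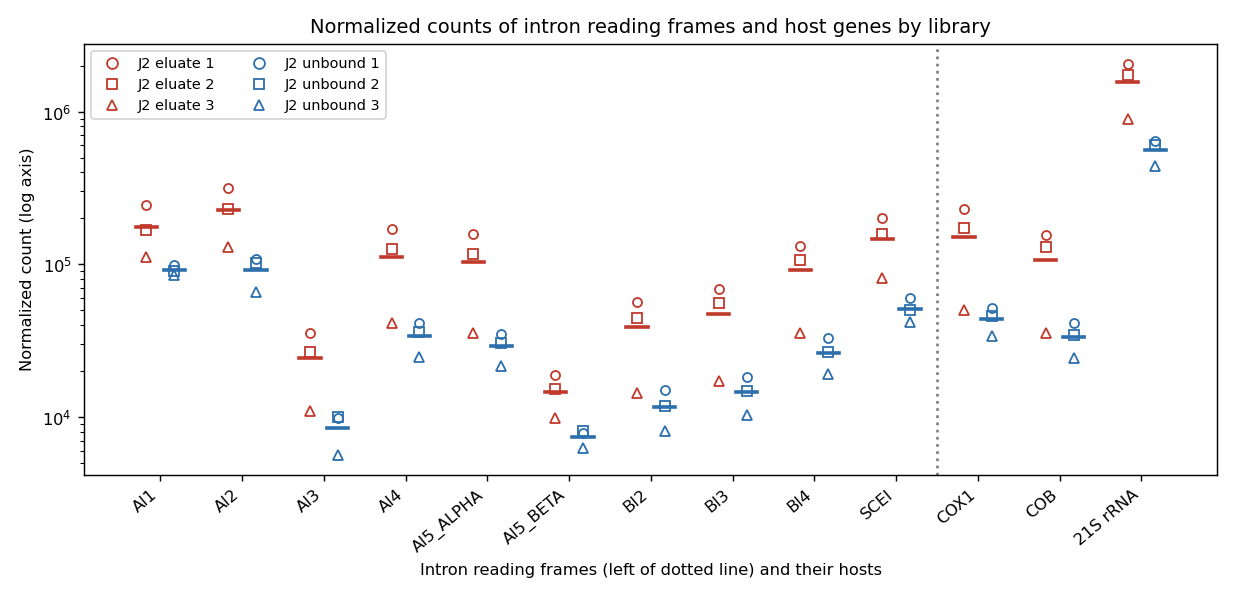
Normalized counts on a log axis of the 10 intron reading frames and, right of the dotted line, their 3 hosts, in the 3 J2 eluate libraries (red, left of each pair) and the 3 J2 unbound libraries (blue, right). Horizontal bars are group means. Eluate 3 (red triangle) is the lowest eluate for each feature, and for BI2 and BI3 it lies below the highest unbound library.

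AI1 and AI2, the group II maturases and reverse transcriptases, had the largest counts among the reading frames of COX1. AI1 had 242657, 167681 and 112364 normalized counts in eluates 1, 2 and 3, against 98874, 90346 and 85367 in the unbound libraries, which gave a log2 fold change of 0.86 with an SE of 0.34 (limma adjusted p = 0.0406). AI2 had 316041, 231645 and 129618 in the eluates, against 108567, 101974 and 65920 in the unbound libraries (log2 fold change 1.23, SE 0.39, limma adjusted p = 0.0164). For both, the groups did not overlap, and the eluates were spread more widely than the unbound libraries. AI1 has the smallest fold change of the 10 and was also the least stable, losing its call in 5 of 15 settings, with an adjusted p of up to 0.143.

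The endonuclease frames of COX1 lie further along the precursor. AI3, the frame of I-SceIII, had 35578, 26512 and 11050 normalized counts in the eluates, against 9852, 9984 and 5656 in the unbound libraries (log2 fold change 1.41, SE 0.41, limma adjusted p = 0.0103). Its lowest eluate lay just above its highest unbound library. AI4, the frame of I-SceII, which can gain maturase activity by mutation, had 169878, 125309 and 41464 in the eluates, against 41347, 35926 and 24624 in the unbound libraries (log2 fold change 1.53, SE 0.48, limma adjusted p = 0.0150). AI5_ALPHA, the frame of I-SceIV, had 156969, 116052 and 35503 in the eluates, against 35157, 30607 and 21696 in the unbound libraries (log2 fold change 1.60, SE 0.49, limma adjusted p = 0.0140). In AI4 and AI5_ALPHA eluate 3 was barely above unbound 1, so that the order of the groups rests there on a narrow margin.

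AI5_BETA, the hypothetical frame in the sixth intron, was the least abundant reading frame by mean. It had 18905, 15298 and 9908 normalized counts in the eluates, against 7821, 8170 and 6325 in the unbound libraries, which gave a log2 fold change of 0.94 with an SE of 0.25 (limma adjusted p = 0.00693). Its fold change is small and its spread is small too, and its call held in 15 of 15 settings.

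Among the maturase frames of COB the groups overlapped in 2 of 3. BI2 had 56892, 44536 and 14488 normalized counts in the eluates, against 14963, 11901 and 8177 in the unbound libraries (log2 fold change 1.55, SE 0.46, limma adjusted p = 0.0118). BI3, whose maturase acts together with the nuclear protein Mrs1, had 68792, 55683 and 17164 in the eluates, against 18450, 14834 and 10267 in the unbound libraries (log2 fold change 1.52, SE 0.47, limma adjusted p = 0.0146). In BI2 and BI3 eluate 3 was below unbound 1, and eluates 1 and 2 were above all unbound libraries. BI4, whose maturase acts together with the leucyl-tRNA synthetase Nam2, had 131024, 107367 and 35428 in the eluates, against 32799, 26665 and 19141 in the unbound libraries, and its log2 fold change, 1.63 with an SE of 0.46, was the highest of the 10 (limma adjusted p = 0.00871). BI4 is also the only one with windows of 50 bases, the read length, that occur more than once in the genome. Of its windows 91.4% were found once, against all windows of the other 9, and how reads of the repeated windows were counted is not given in the sources used here.

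SCEI, the frame of I-SceI, had 201207, 158997 and 81162 normalized counts in the eluates, against 60212, 49882 and 41990 in the unbound libraries. Its log2 fold change of 1.45 (SE 0.36) had the smallest limma adjusted p of the 10, 0.00464, and its groups did not overlap.

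Eluate 3 was the lowest eluate for all 10 and unbound 3 the lowest unbound library for all 10. The reading frames together made up 6.59%, 6.24% and 2.89% of all feature counts in eluates 1, 2 and 3, against 1.21%, 1.15% and 0.831% in the unbound libraries, with shared reads entering more than once. The share of all 108 mitochondrial features followed the same order, with 20.2%, 20.4% and 10.1% in the eluates and 4.01%, 4.02% and 2.77% in the unbound libraries. For both shares the groups did not overlap (exact two-sided permutation test, p = 0.1, the smallest that 3 against 3 libraries can give). Feature counts summed to 43141091, 27777440 and 19871214 in eluates 1, 2 and 3 and to 23741359, 18645818 and 27010153 in the unbound libraries, so eluate 3 was also the shallowest eluate. The part of depth in its lower values was not tested.

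Over the 6 libraries the log2 counts of the reading frames went closely together, with pairwise Pearson r between 0.964 and 1.000 (median 0.985). These points share the libraries and, within a host, also reads.

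**Figure D3:**
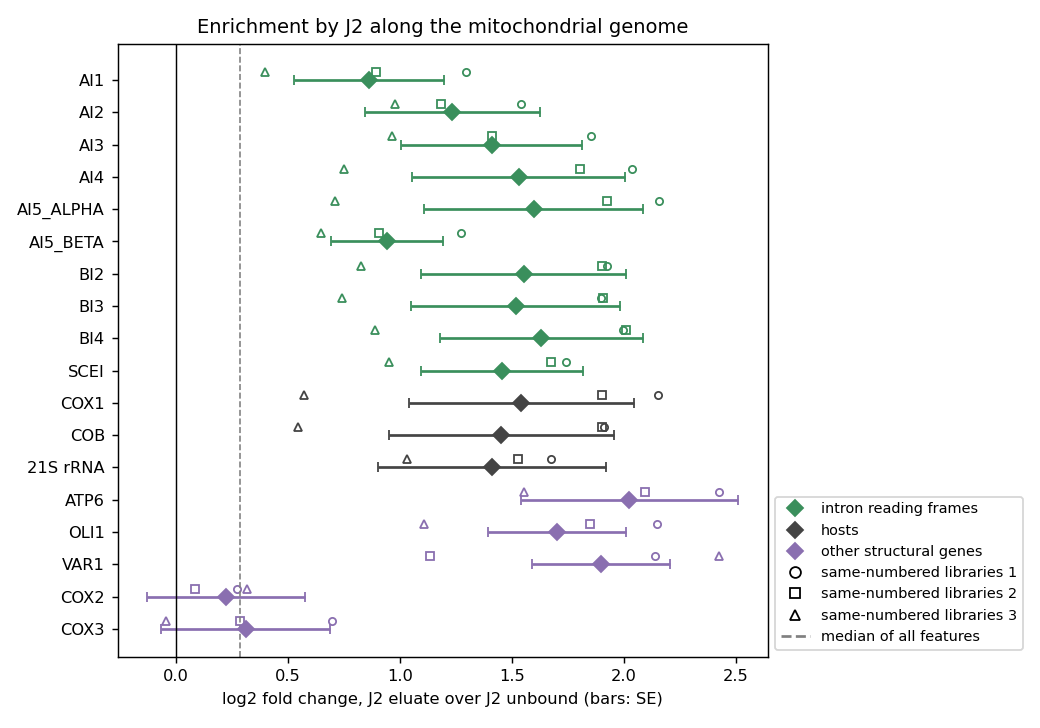
Log2 fold change of J2 eluate over J2 unbound (diamonds, bars are the SE of the limma fit) for the 10 reading frames (green), their hosts (grey) and 5 other structural genes (purple), with the log2 ratio of each same-numbered pair of libraries as open symbols. The dashed line is the median over all features, 0.28. Pair 3 is the lowest of the 3 for each reading frame, and COX2 and COX3 sit near the dashed line.

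The fold changes of the hosts lay in the same range. COX1 had 228640, 171887 and 50339 normalized counts in the eluates, against 51442, 45930 and 33864 in the unbound libraries (log2 fold change 1.54, SE 0.50, limma adjusted p = 0.0187). COB had 155912, 129135 and 35715 in the eluates, against 41488, 34545 and 24490 in the unbound libraries (log2 fold change 1.45, SE 0.50, limma adjusted p = 0.0244). In COX1 and COB eluate 3 was below unbound 1. The 21S rRNA had 2059650, 1736360 and 897707 in the eluates, against 645565, 602493 and 438912 in the unbound libraries (log2 fold change 1.41, SE 0.51, limma adjusted p = 0.0293), with no overlap.

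The question that the shared reads raise is whether the frames followed their hosts or differed from them. The ratio of each frame to its host within a library does not depend on the scaling of the libraries. For AI1 this ratio was 1.06, 0.976 and 2.23 in the eluates, against 1.92, 1.97 and 2.52 in the unbound libraries. Eluates 1 and 2 were below all unbound libraries and eluate 3 was among them, and the mean log2 difference was −0.68 (exact two-sided permutation test, p = 0.3). Within same-numbered libraries the AI1 difference was −0.86, −1.01 and −0.18, below 0 in 3 of 3 pairs. AI5_BETA had ratios of 0.0827, 0.0890 and 0.197 in the eluates, against 0.152, 0.178 and 0.187 in the unbound libraries, with eluate 3 above and eluates 1 and 2 below all of these (log2 difference −0.60, exact two-sided permutation test, p = 0.4). AI2 had 1.38, 1.35 and 2.57 in the eluates, against 2.11, 2.22 and 1.95 in the unbound libraries (log2 difference −0.31, exact two-sided permutation test, p = 0.4). AI3 had 0.156, 0.154 and 0.220 in the eluates, against 0.192, 0.217 and 0.167 in the unbound libraries (log2 difference −0.13, exact two-sided permutation test, p = 0.6). These 4 share the smallest parts of their bases with COX1 among its frames. In them, eluates 1 and 2 held less of the frame per COX1 count than any unbound library, and eluate 3 did not. The shared part of the reads can be larger than that of the bases. Per kb, COX1 had means of 76874 normalized counts in the eluates and 22376 in the unbound libraries. AI3 had 15256 and 5318, and AI5_BETA had 10391 and 5257.

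AI4 and AI5_ALPHA, with about as many shared as unshared bases, differed from COX1 by −0.01 and 0.05 on the log2 scale. Shared exon reads are counted in the frame and in the host, which draws such differences towards none. These small values therefore cannot tell whether the intron parts followed COX1. BI4 was the only frame whose ratio to its host did not overlap between the groups. It had 0.840, 0.831 and 0.992 in the eluates, against 0.791, 0.772 and 0.782 in the unbound libraries, a log2 difference of 0.18 (exact two-sided permutation test, p = 0.1, the smallest possible). SCEI came to 0.0977, 0.0916 and 0.0904 of the 21S rRNA in the eluates, against 0.0933, 0.0828 and 0.0957 in the unbound libraries (log2 difference 0.04, exact two-sided permutation test, p = 0.7). Adjusted over the 10 ratios tested, no p was below 0.571, and none could pass 0.05 with 3 libraries a group. Taken by pair, a choice made after seeing the data, the difference was below 0 in 3 of 3 pairs for AI1 and above 0 in 3 of 3 for AI5_ALPHA, BI2 and BI4 (exact two-sided sign-flip permutation test, p = 0.25, the smallest that 3 pairs can give). The other 6 frames had pairs of both signs.

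**Figure D4:**
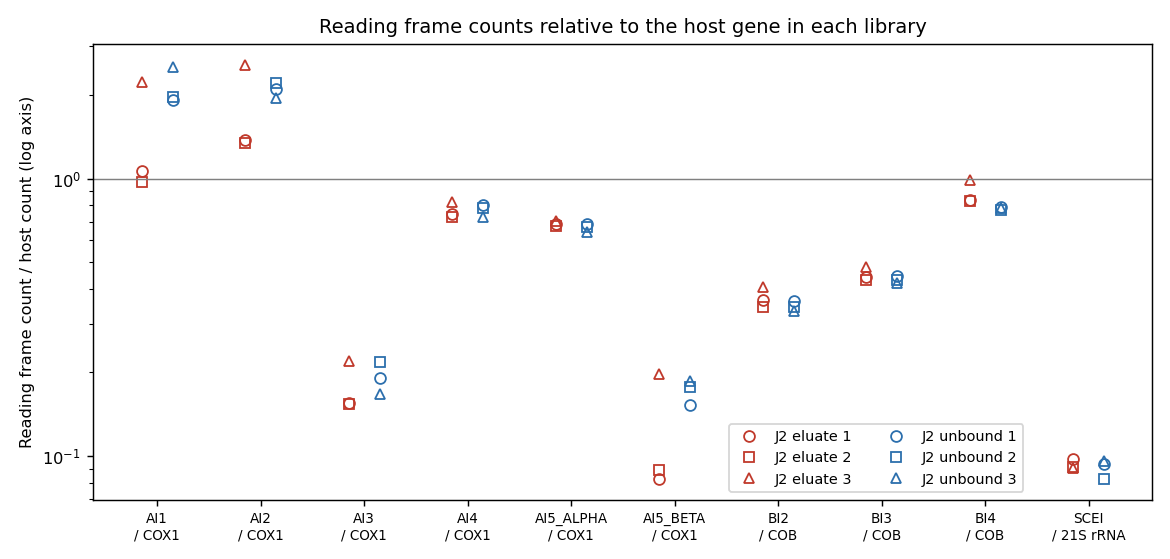
Normalized count of each reading frame divided by that of its host, on a log axis, in the 3 J2 eluate libraries (red, left) and the 3 J2 unbound libraries (blue, right). For AI1, AI2, AI3 and AI5_BETA eluates 1 and 2 lie below every unbound library while eluate 3 lies apart from them; BI4 is the only frame with every eluate above every unbound library.

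Coordinates allowed the reads of AI1 and AI2 outside the COX1 exons to be bounded from below. The counted bases of AI1 end at chrM:16622 and those of AI2 at chrM:19130, within the next intron of COX1. Such reads are therefore not all from the intron that holds the frame. All COX1 exon bases of AI1 and AI2 are also bases of AI3, so a read of AI1 that touches an exon is a read of AI3 as well, and the count of AI1 minus that of AI3 is the least that lay outside those exons. This minimum was 85.3%, 84.2% and 90.2% of AI1 in the eluates, against 90.0%, 88.9% and 93.4% in the unbound libraries. For AI2 it was 88.7%, 88.6% and 91.5% in the eluates, against 90.9%, 90.2% and 91.4% in the unbound libraries. Most reads of both group II frames thus came from bases outside the COX1 exons in every library.

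The enrichment can be bracketed in the same way. The mean count of AI1 outside the COX1 exons in the eluates was between 1.64 and 2.10 times that in the unbound libraries, where the whole feature gave a ratio of means of 1.90. For AI2 the bracket was 2.19 to 2.70, where the whole feature gave 2.45. These brackets cover the uncertainty of the read assignment only, not the spread between libraries. For the other frames no bound as close as these was obtained. All exon bases of AI4 lie inside AI5_ALPHA, but the difference of these features came to only 7.60%, 7.39% and 14.4% of AI4 in the eluates and 14.97%, 14.81% and 11.89% in the unbound libraries, so that up to most of AI4's reads could be exon reads. For SCEI, the shared 162 bases would hold 50.3% to 54.4% of its eluate counts if 21S rRNA counts were spread evenly by exon base. In the unbound libraries they would hold 51.4% to 59.4%. This reckoning goes by bases alone, and reads of 50 bases that only partly reach into the shared stretch are counted in SCEI too. Even coverage would therefore put more 21S rRNA reads into SCEI than these shares give. SCEI was 9.04% to 9.77% of the 21S rRNA in the eluates and 8.28% to 9.57% in the unbound libraries.

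Across the 10 frames the fold change was higher where more of the bases were shared with the host (Spearman rho 0.89, Pearson r 0.81, n = 10), and likewise among the 6 of COX1 (rho 0.89, r 0.86). This is a description over features that share libraries and reads. Reads counted in both a frame and its host draw their fold changes together, and the shared part is measured in bases, not reads. Nothing is therefore read from these correlations. The order also did not hold in each pair of libraries. In pair 3 the log2 ratios of AI2 and AI3, 0.98 and 0.97, were above those of AI4 and AI5_ALPHA, 0.75 and 0.71. AI1 and AI5_BETA, with 0.40 and 0.65, were still the lowest there.

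Per kb of counted bases, SCEI had the highest level, with a mean of 139057 ± 57559 normalized counts per kb in the eluates and 47916 ± 8637 in the unbound libraries (SD, n = 3 each). AI2 and AI1 came next, with 77451 ± 32024 and 61028 ± 22905 in the eluates and 31614 ± 7876 and 32059 ± 2393 in the unbound libraries (SD, n = 3 each). AI4, AI5_ALPHA, BI4, BI3, BI2, AI3 and AI5_BETA followed in that order in both groups, down to 10391 ± 3200 per kb in the eluates and 5257 ± 693 in the unbound libraries for AI5_BETA (SD, n = 3 each). In the eluates the ranges of all neighbours in this order overlapped, although within a library each frame was above the next in 3 of 3 eluates, except AI1 over AI4 and AI3 over AI5_BETA, which held in 2 of 3. In the unbound libraries SCEI lay above AI1 and AI2 without overlap, and AI2 lay above AI4, while all other neighbours overlapped. The order also depends on the shared exon reads, in SCEI on those of the abundant 21S rRNA.

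Features annotated on the opposite strand cover the whole span of each host. antisense2179, opposite COX1, had 939, 3136 and 1685 normalized counts in the eluates, against 159, 439 and 140 in the unbound libraries (log2 fold change 2.99, SE 0.49, limma adjusted p = 0.000345). antisense2184, opposite COB, had 284, 622 and 497 in the eluates, against 22.3, 46.1 and 33.5 in the unbound libraries (log2 fold change 3.73, SE 0.35, limma adjusted p = 7.87e-06). In both, every eluate was above every unbound library. antisense2190, opposite the 21S rRNA, had 981, 14645 and 598 in the eluates, against 374, 1678 and 235 in the unbound libraries, and eluate 2 and unbound 2 stood far above the others of their group. Its log2 fold change of 1.95 (SE 1.08) was not called (limma adjusted p = 0.127), but was called with the replicate number as a block (limma adjusted p = 0.000212) and fell to 0.54 without eluate 2 (limma adjusted p = 0.523).

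**Figure D5:**
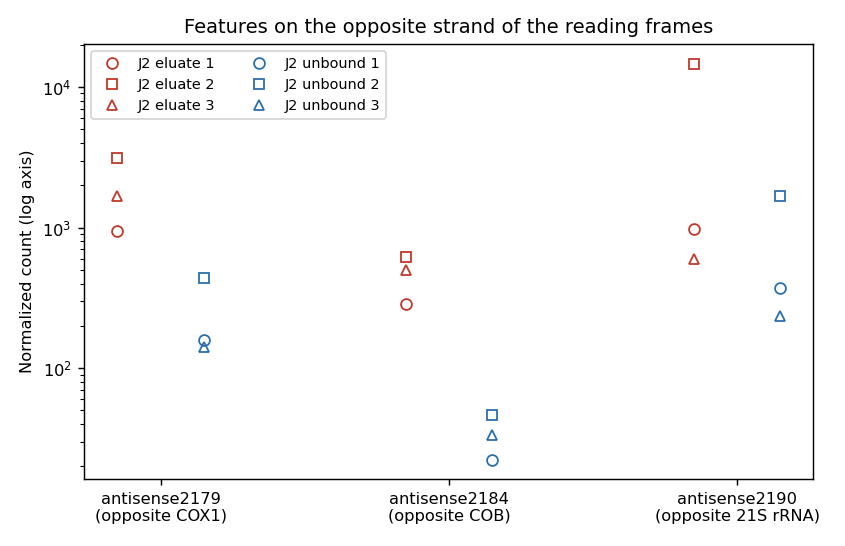
Normalized counts on a log axis of the 3 features annotated opposite the hosts, in the 3 J2 eluate libraries (red, left) and the 3 J2 unbound libraries (blue, right). Opposite COX1 and COB every eluate lies above every unbound library, and opposite the 21S rRNA the libraries numbered 2 (squares) lie far above the rest.

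The opposite strand was scarce beside the sense strand. In the sums used below, exon reads shared by a host and its frames enter more than once, which lowers the shares. Beside the host alone in eluate 3, antisense2179 had 1685 normalized counts to 50339 of COX1, and antisense2184 had 497 to 35715 of COB. antisense2179 came to 0.0804%, 0.367% and 0.432% of the summed counts of COX1 and its 6 frames in the eluates, against 0.0451%, 0.136% and 0.0577% in the unbound libraries, and the groups overlapped (exact two-sided permutation test, p = 0.2). antisense2184 came to 0.0687%, 0.185% and 0.484% of COB and its 3 frames in the eluates, against 0.0207%, 0.0524% and 0.0540% in the unbound libraries, without overlap (exact two-sided permutation test, p = 0.1, the smallest possible). antisense2190 came to 0.0434%, 0.773% and 0.0611% of the 21S rRNA and SCEI in the eluates, against 0.0530%, 0.257% and 0.0488% in the unbound libraries, with overlap and with eluate 2 the highest (exact two-sided permutation test, p = 0.7). Eluate 3, the lowest eluate for every sense frame, had the highest share of opposite-strand counts at COX1 and COB. The strand setting of the counting is not given in the sources used here, but these shares show that the counts kept the strands apart.

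COX1 and COB are among the 8 structural protein genes of the mitochondrial genome, and 6 of these 8 were enriched and 0 reduced. Their median log2 fold change was 1.62, beside 1.49 for the 10 frames. ATP6, a subunit of ATP synthase, had 70382, 49914 and 17413 normalized counts in the eluates, against 13085, 11690 and 5933 in the unbound libraries (log2 fold change 2.02, SE 0.49, limma adjusted p = 0.00382). VAR1, a protein of the mitochondrial ribosome, had 515, 487 and 467 in the eluates, against 116, 221 and 86.3 in the unbound libraries (log2 fold change 1.90, SE 0.31, limma adjusted p = 0.000340). These had the highest fold changes among structural genes with a mean above 40.

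The genes of the other core subunits of cytochrome c oxidase, COX2 and COX3, had the lowest. COX2 had 33988, 26182 and 16097 normalized counts in the eluates, against 28141, 24724 and 12936 in the unbound libraries (log2 fold change 0.22, SE 0.35, limma adjusted p = 0.582). COX3 had 33308, 21695 and 11246 in the eluates, against 20580, 17791 and 11616 in the unbound libraries (log2 fold change 0.31, SE 0.38, limma adjusted p = 0.471). Their groups overlapped. Both genes were called as enriched when libraries were scaled by total count or by nuclear mRNAs.

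The level of the frames beside that of the structural genes was also compared within libraries. In each, the median log2 count of the 10 frames was above that of the 8 structural genes by 1.55, 1.63 and 1.08 in the eluates, against 0.71, 0.67 and 0.73 in the unbound libraries. The mean difference between the groups was 0.72 and the groups did not overlap (exact two-sided permutation test, p = 0.1, the smallest possible). This difference compares middle levels, which different genes can hold in different libraries, and it does not show a higher enrichment of the frames, whose median fold change was below that of the structural genes. COX1 and COB share reads with the frames. Without them, a choice made after seeing the data, the values were 2.09, 2.23 and 1.40 in the eluates, against 1.05, 0.99 and 1.30 in the unbound libraries (mean difference 0.80, exact two-sided permutation test, p = 0.1).

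Proteins for the splicing, transcription and turnover of mitochondrial RNA are mostly made from nuclear genes. Of 18 such nuclear genes, 1 was enriched and 15 were reduced, beside 660 enriched and 4349 reduced of 6291 nuclear protein-coding features. Most nuclear protein-coding features were thus reduced in the deposited scaling, and the direction is not particular to this list. QRI5 (also named COX24), needed for the processing and translation of COX1 mRNA, had the lowest fold change, with 88.5, 75.1 and 95.4 normalized counts in the eluates, against 718, 678 and 701 in the unbound libraries (log2 fold change −3.01, SE 0.19, limma adjusted p = 6.72e-07). MTF1, the transcription factor of the mitochondrial RNA polymerase, had 86.5, 68.4 and 101 in the eluates, against 646, 565 and 531 in the unbound libraries (log2 fold change −2.76, SE 0.21, limma adjusted p = 2.22e-06). In both, every eluate was far below every unbound library.

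PET54, a factor for the translation of COX3 and the splicing of a COX1 intron, was the enriched one. It had 1563, 1537 and 1366 normalized counts in the eluates, against 505, 498 and 630 in the unbound libraries (log2 fold change 1.46, SE 0.17, limma adjusted p = 3.28e-05). MSS18, which acts on the AI5_BETA intron, had the next highest value, with 451, 447 and 598 in the eluates, against 401, 413 and 443 in the unbound libraries (log2 fold change 0.24, SE 0.18, limma adjusted p = 0.257). MRS1 and NAM2, the partners of the BI3 and BI4 maturases, were reduced with log2 fold changes of −1.79 (SE 0.17, limma adjusted p = 8.74e-06) and −1.89 (SE 0.20, limma adjusted p = 1.87e-05). The count of reduced genes depends on the scaling, with 15 by TMM factors, 11 by total count and 8 by nuclear mRNAs, under which 2, 3 and 5 were enriched.

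The scaling also sets the size of every fold change given here. The median over all features was 0.28 in the deposited scaling, 0.44 with TMM factors, 1.14 by total count and 1.52 by nuclear mRNAs, and the enriched share of all calls was 52.9%, 56.5%, 72.3% and 79.98% in the same order. The median of the 10 frames moved along with it, to 1.65, 2.40 and 2.81, and stayed above the median of all features by 1.20 in the deposited scaling and by 1.21, 1.26 and 1.28 in the others.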

How the data were processed

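Reads of 50 bases were, per the study's methods, aligned by the authors with STAR 2.5 to sacCer3 and counted with featureCounts (Subread 1.5.0-p1) over Ensembl EF4.68 with added untranslated regions and non-coding transcripts. The strand setting is not given in the sources used here. The authors deposited a normalized count signal per feature, read counts divided by DESeq2 (1.24.0) size factors. Whole reads were recovered for 100% of values in each library (tolerance 0.006). The 3 columns of the authors' comparison (fold change, p, adjusted p) were not used. The 47860 lines were collapsed to 15753 features.

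Eluate was tested against unbound with limma 3.58.1 (trend) on log2(value + 1), a scale that understates changes of low features, adjusted over all features. Ratios had exact two-sided permutation tests. Alternatives were other scalings, pseudocounts of 0.5 and 10, a mean above 40, DESeq2 1.42.0, edgeR 4.0.16, the replicate block and each library left out. On recovered reads edgeR called 6530 features enriched and 5075 reduced, and DESeq2 5715 and 5370. The tests were run on simulated data first. Same-numbered libraries deviated together (r = 0.23, 0.32 and 0.30, against −0.37 to 0.12 between different numbers). The numbers were therefore taken to pair the libraries, which come from 3 repeats of the experiment. The main fit and the permutation tests between groups did not use this pairing.

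All 10 members, their hosts, features overlapping them, and the highest and lowest 2 of each related list with a mean above 40 were named. MRS1 and NAM2 were added as partners of named maturases. The members and lists were chosen with earlier results of these data known. Coordinates are those of sacCer3, to which RefSeq R64 was equal over the exons checked. A count of 3 reads, the limit that a count of 0 allows, equals 1.47 to 2.55 normalized counts in the eluates and 3.87 to 5.31 in the unbound libraries, for counting error only.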

Additional observations from a re-analysis of the deposited data

How the results depend on the processing

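The count of enriched frames was 10 under every scaling, pseudocount, filter and tool tried (TMM, total count, nuclear mRNAs, pseudocounts of 0.5 and 10, mean above 40, DESeq2, edgeR). Of all 15753 features, 6590 were enriched by TMM, 8508 by total count and 9844 by nuclear mRNAs. Pseudocounts of 0.5 and 10 gave 6016 and 6216, and a mean above 40 gave 3538 of 10188 features. A call of enrichment was thus frequent in each, and most frequent by nuclear mRNAs. With the replicate block it was 10 as well, and the block changed no call of a member. With a library left out it ran from 3 to 10, beside 5333 to 6121 of all features. The count of reduced frames was 0 in every setting. The median log2 fold change was 2.40 by total count and 2.81 by nuclear mRNAs, which follows from the scaling itself, since the median of all features moved along. With a library left out it ran from 1.13 to 2.02. The median log2 ratio to the host, 0.02, ran from −0.02 to 0.04 with a library left out, so its sign is not settled. Differences within same-numbered pairs, added after seeing the data, give the same median, 0.02, with the numbers as a block. The ratio of SCEI to its host moved to −0.02 without unbound 2. The difference from the structural genes in median log2 count ran from 0.61 to 0.88, while the median fold change of the structural genes (1.62) was above that of the frames. The precision is limited by the 3 libraries a group and their spread. The fewest reads of any frame in a library came to 4389. Reads shared with host exons could be bounded closely only for AI1 and AI2, and the strand setting of the counting is not stated.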

Other observations

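Along the mitochondrial chromosome, enrichment in the eluate was not limited to the intron reading frames. Of the 58 other features on the plus strand, 37 were enriched and 0 reduced (median log2 fold change 1.35). Of the 40 features on the minus strand, 34 were enriched and 0 reduced, and the median was 2.59. Among all 43 other mitochondrial features with a mean above 40, 31 were enriched. By the same rule 38.7% of all features were enriched and 34.4% reduced. With the fit limited to features with a mean above 40, 3538 of 10188 were enriched. Many of these features overlap each other and share reads.

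Outside the mitochondrial chromosome, the features whose log2 counts over the 6 libraries were most like the mean of the 10 frames, among 10135 with a mean above 40, were antisense2672 (Pearson r 0.996), TDA4 (0.994), YHI9 (0.988), RAD28 (0.988) and SUT560 (0.987). antisense2672 had 231, 207 and 100.5 normalized counts in the eluates, against 93.8, 86.8 and 73.5 in the unbound libraries, so that it too was lowest in eluate 3 and unbound 3. Its log2 fold change was 0.99, and those of TDA4, YHI9, RAD28 and SUT560 were 0.60, 0.61, 0.41 and 0.37, all smaller than the median of the frames. With 6 libraries, high values of r among so many features are frequent, and nothing is read from them.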
